A study of Mus musculus with 8 samples.

Results

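The genes described here encode subunits of mitochondrial complex I. They were chosen by symbol: names starting with Ndufa, Ndufb, Ndufc, Ndufs or Ndufv followed by a digit, and Ndufab1, without the assembly factors named Ndufaf. The rule found 36 genes with a probe set mapped to that one symbol, and all 36 were among the 16026 genes tested. Ndufb4 had no probe set mapped to that symbol alone and is not analysed here. The 36 comprised 6 nuclear core subunits, 9 accessory subunits of the peripheral arm, 18 accessory subunits of the membrane arm, the acyl carrier Ndufab1, and Ndufa4 and Ndufa4l2, whose products carry the family name although NDUFA4 is now placed in complex IV. For the 5 genes with more than 1 probe set the brighter was used.

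RNA came from cervical spinal cord of male inbred C57BL/6 mice, given as 6 weeks old, and was measured on 8 whole-transcript arrays in 4 groups of 2. In the acupoint group MPTP (20 mg/kg, intraperitoneal) was given every 24 h over 4 weeks, and needles were turned by hand at the leg point GB34 and the foot point LR3 every 48 h in 14 sessions. The non-acupoint group received the same MPTP and the same number of sessions with needles placed in the hips. The MPTP group received MPTP without needling, and the control group received saline on the same schedule. No genetic change is named for any group, and neither mice needled without MPTP nor mice held without needling are described. More mice were treated than arrays were run. Each array is labelled with a mouse number, but whether it holds 1 mouse or a pool is not given, so the spread behind the p-values may be technical.

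Complex I is the entry point of the respiratory chain. It takes electrons from NADH through a flavin and a chain of iron-sulfur clusters in its peripheral arm, passes them to ubiquinone, and pumps protons through its membrane arm. The core subunits carry out this chemistry, and accessory subunits surround them and hold the complex together. MPTP is converted by monoamine oxidase B, in the brain mainly in glia, to MPP+, which dopaminergic neurons take up and which blocks complex I near the ubiquinone site. The comparisons ask whether the RNA levels of its subunits differed after MPTP, and whether they differed with needling.

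Values are the authors' RMA signals on the log2 scale. A gene was called at a limma adjusted p under 0.05, with Benjamini-Hochberg adjustment over all 16026 genes in each comparison. Where a standard error (SE) is given beside a difference, it comes from a fit to all 8 arrays. With 2 arrays in a group, the number of arrays limits the precision of every value.

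The arrays differed in tissue markers before any complex I gene was considered. The mean of 15 skeletal muscle markers was 6.99 and 5.63 on the acupoint arrays, 5.56 and 5.94 on the non-acupoint arrays, 5.86 and 5.80 on the MPTP arrays, and 7.48 and 8.94 on the control arrays (log2 signal, replicates 1 and 2 in turn). Control arrays were therefore highest in muscle markers, with control replicate 2 above all others. The mean of 10 neuron markers was 11.1 and 11.2 on the acupoint arrays, 11.2 on each of the non-acupoint and MPTP arrays, and 10.9 on each control array. In MPTP minus control, 9 of 10 neuron, 6 of 6 astrocyte, 6 of 6 microglia, 3 of 6 motor neuron and 2 of 5 oligodendrocyte markers were called higher. All 15 muscle markers were lower without overlap between the arrays, and 11 of them were called. Over all genes 13.7% were called higher and 3.10% lower. The part of these marker differences in the results below was not tested. In bulk tissue, fewer cells of a type and less RNA per cell cannot be told apart.

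Comparing the 3 MPTP groups with control, 9 of the 36 subunit genes were called. Ndufs1, Ndufa9, Ndufa10, Ndufs8, Ndufv1 and Ndufs7 rose, and Ndufs6, Ndufa3 and Ndufa2 fell. Of the 6 higher genes 4 encode core subunits, and none of the 3 lower genes does. Over all genes tested 19.9% were called higher and 5.35% lower in this comparison, so 6 higher and 3 lower of 36 lie close to the background share in each direction. The median difference of the 36 was 0.014, against 0.055 for all genes tested. It was -0.11 under cyclic loess, against 0.035 for all genes, and -0.067 after quantile normalization again, against 0.099. With arrays centred on the median of tested genes it was -0.067, against -0.026 for all genes. Between groups, 9 of 36 had no overlap between the 6 MPTP-treated arrays and the 2 control arrays, against 36.9% of all genes.

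**Figure D1:**
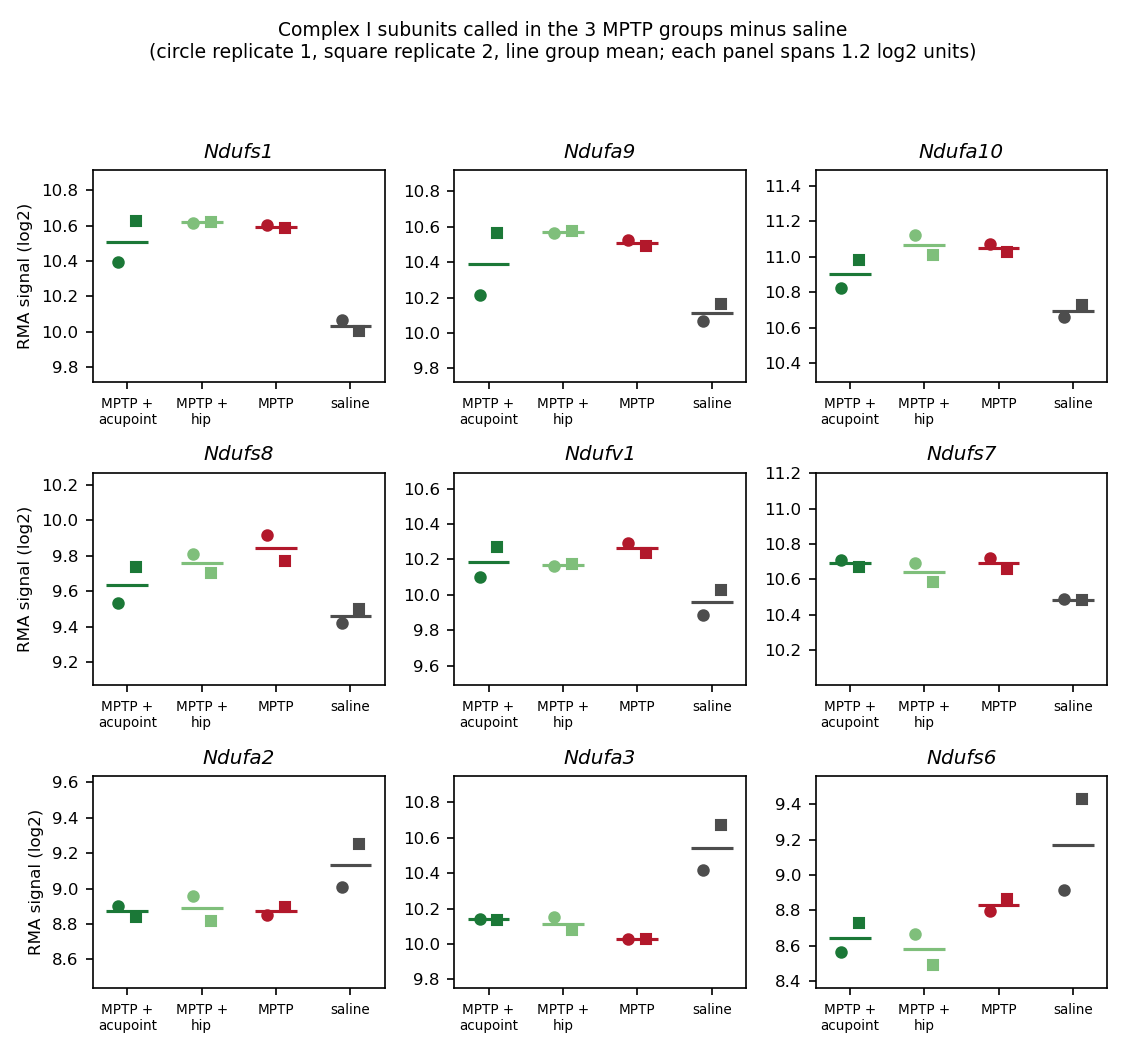
Log2 RMA signal of the 9 subunit genes called in the 3 MPTP groups minus control, on each of the 8 arrays (circle replicate 1, square replicate 2, line group mean). Ndufs1 lay between 10.39 and 10.63 on the 6 MPTP-treated arrays, above the 2 saline control arrays at 10.064 and 10.003, and Ndufa3 lay below both control arrays on all 6.

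Among the core subunits, Ndufs1 had the largest difference. Its protein is the largest subunit of the complex and carries iron-sulfur clusters of the NADH-oxidising module. The Ndufs1 signal was 10.39 and 10.63 on the acupoint arrays, 10.62 and 10.62 on the non-acupoint arrays, 10.60 and 10.59 on the MPTP arrays, and 10.064 and 10.003 on the control arrays. All 6 treated arrays lay above both control arrays, and acupoint replicate 1 was the lowest of the treated ones. The 3 MPTP groups exceeded control by 0.54 (SE 0.068, limma adjusted p = 0.0012), a 1.46-fold difference. Ndufs1 was called in each separate comparison with control as well: by 0.56 in MPTP (limma adjusted p = 0.0046), 0.48 in acupoint (0.010) and 0.59 in non-acupoint mice (0.0037). These comparisons share the same 2 control arrays.

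Ndufv1 binds NADH and the flavin where electrons enter the complex. Its signal was 10.10 and 10.27 on the acupoint arrays, 10.17 and 10.18 on the non-acupoint arrays, 10.29 and 10.24 on the MPTP arrays, and 9.89 and 10.03 on the control arrays. The lowest treated array, acupoint replicate 1, stood just above the higher control array. The 3 MPTP groups exceeded control by 0.25 (SE 0.067, limma adjusted p = 0.024).

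Ndufs7 and Ndufs8 carry the last iron-sulfur clusters before ubiquinone. For Ndufs8 the signal was 9.53 and 9.73 on the acupoint arrays, 9.81 and 9.70 on the non-acupoint arrays, 9.92 and 9.77 on the MPTP arrays, and 9.42 and 9.50 on the control arrays. For Ndufs7 it was 10.71 and 10.67 on the acupoint arrays, 10.69 and 10.59 on the non-acupoint arrays, 10.72 and 10.66 on the MPTP arrays, and 10.49 and 10.48 on the control arrays. Neither gene showed overlap between treated and control arrays, and the treated arrays came nearest to control at acupoint replicate 1 for Ndufs8 and non-acupoint replicate 2 for Ndufs7. The 3 MPTP groups exceeded control by 0.28 for Ndufs8 (SE 0.075, limma adjusted p = 0.023) and by 0.19 for Ndufs7 (SE 0.055, limma adjusted p = 0.034). In MPTP minus control alone, Ndufs7 did not pass (0.20, limma adjusted p = 0.069). Under cyclic loess normalization neither of these genes nor Ndufv1 was called: the difference was 0.038 for Ndufs7 (limma adjusted p = 0.66), 0.10 for Ndufv1 (0.23) and 0.14 for Ndufs8 (0.12). After quantile normalization again that of Ndufs8 was 0.18 and not called (0.068), and Ndufs7 was not called either. With arrays centred on the median of tested genes, Ndufs7 and Ndufv1 were not called.

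The other two core genes did not pass. Ndufs3, a cofactor-free subunit of the ubiquinone-binding module, measured 10.59 and 10.82 on the acupoint arrays, 10.73 and 10.77 on the non-acupoint arrays, 10.82 and 10.81 on the MPTP arrays, and 10.63 and 10.79 on the control arrays. Ndufv2, the iron-sulfur partner of Ndufv1, measured 10.39 and 10.68 on the acupoint arrays, 10.64 and 10.73 on the non-acupoint arrays, 10.65 and 10.64 on the MPTP arrays, and 10.47 and 10.67 on the control arrays. For both, acupoint replicate 1 was below both control arrays and the groups overlapped. Across the 6 core genes the median difference was 0.22, against 0.055 for all genes tested, and all 6 differences were positive. Of the 6 core genes 4 were called higher and 0 lower, beside 19.9% and 5.35% of all genes. Under the 4 other scalings the core median lay between 0.070 and 0.37, and that of all genes between -0.026 and 0.21. At least 4 of 6 core differences were then positive, and between 1 and 4 were called.

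**Figure D2:**
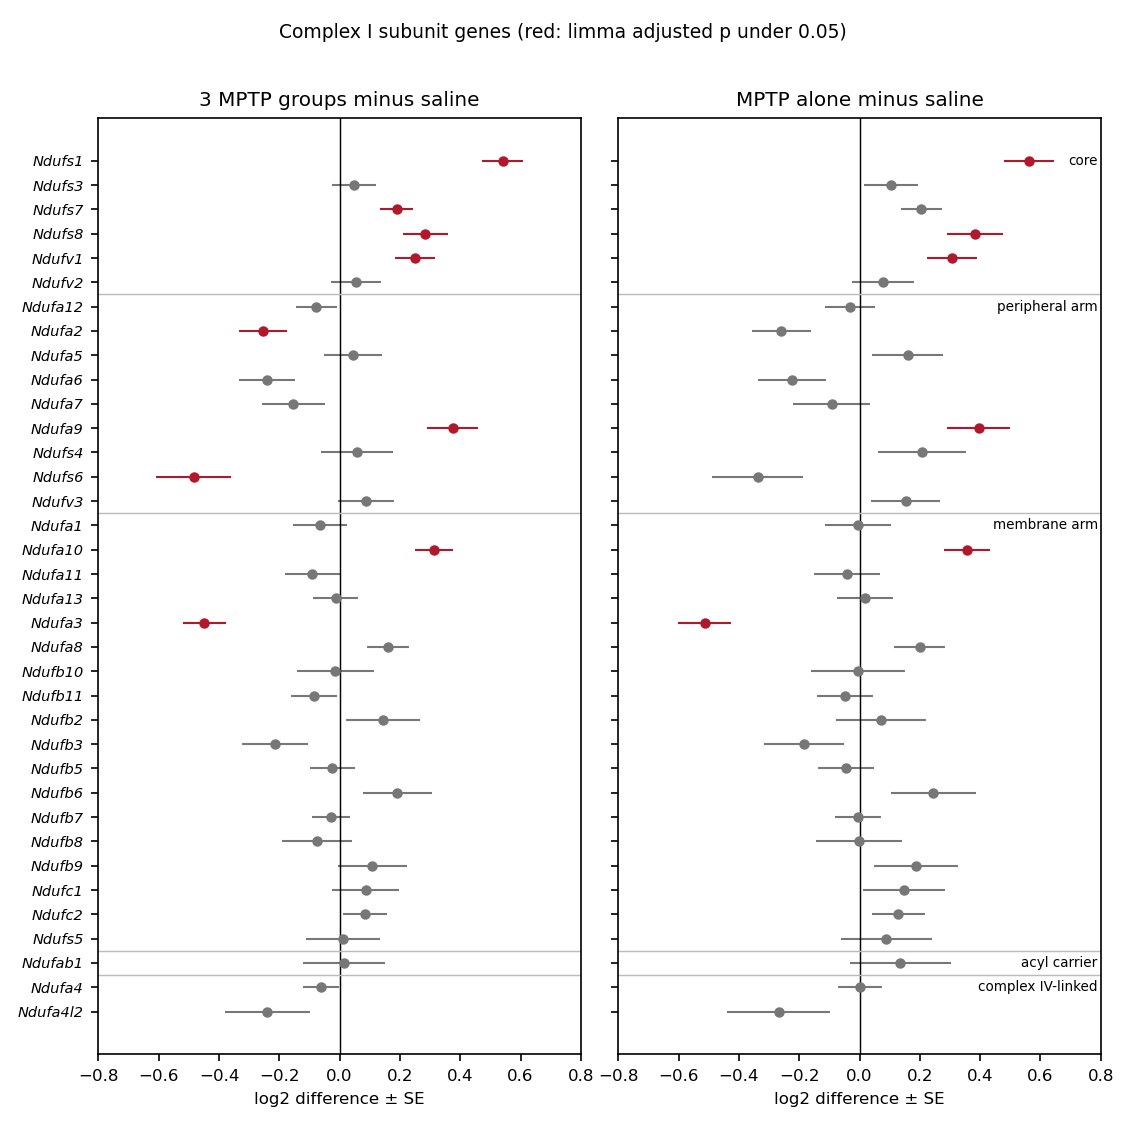
Log2 difference of each of the 36 subunit genes in the 3 MPTP groups minus control (left) and in MPTP alone minus control (right), with bars of 1 SE and genes ordered by role. Red marks a limma adjusted p under 0.05. Ndufs1 stands highest at 0.54 and 0.56. On the left Ndufs6, at -0.48, and Ndufa3, at -0.45, stand lowest. On the right Ndufa3 is lowest at -0.51.

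The 9 accessory subunits of the peripheral arm went both ways. Of these 1 was called higher and 2 lower, beside 19.9% and 5.35% of all genes, and the median was -0.078. This median lay between -0.22 and -0.16 under 3 other scalings, with 3 or 4 called lower, and was 0.074 with 0 called lower when arrays were centred on the median of all probe sets. Ndufa9, which sits near the junction of the arms and binds a nucleotide cofactor, measured 10.22 and 10.56 on the acupoint arrays, 10.56 and 10.58 on the non-acupoint arrays, 10.53 and 10.49 on the MPTP arrays, and 10.06 and 10.16 on the control arrays. Acupoint replicate 1 lay only just above control replicate 2, and the other 5 treated arrays were close together. The difference was 0.37 (SE 0.085, limma adjusted p = 0.012).

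Ndufs6, a zinc-binding subunit needed late in assembly of the NADH-oxidising module, moved the other way. It measured 8.56 and 8.73 on the acupoint arrays, 8.67 and 8.49 on the non-acupoint arrays, 8.80 and 8.87 on the MPTP arrays, and 8.91 and 9.43 on the control arrays. The difference was -0.48 (SE 0.12, limma adjusted p = 0.019), with no overlap. The control arrays themselves differed by more than that, and without control replicate 2, the array of highest muscle marker signal, the difference was -0.23 and was not called (limma adjusted p = 0.21). In MPTP minus control Ndufs6 did not pass (-0.34, limma adjusted p = 0.16).

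Ndufa2, a small thioredoxin-like subunit of the same module, measured 8.90 and 8.84 on the acupoint arrays, 8.96 and 8.82 on the non-acupoint arrays, 8.85 and 8.90 on the MPTP arrays, and 9.01 and 9.25 on the control arrays. Non-acupoint replicate 1 lay just under control replicate 1. The difference was -0.26 (SE 0.080, limma adjusted p = 0.043), and without control replicate 2 it was -0.13 and not called (limma adjusted p = 0.37). Ndufs4, Ndufv3, Ndufa5, Ndufa6, Ndufa7 and Ndufa12 were not called, with differences between -0.24 for Ndufa6 and 0.087 for Ndufv3. Loss of Ndufs4 causes a Leigh-like encephalopathy in mice, and its difference here was 0.057 (limma adjusted p = 0.77).

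Of the 18 accessory subunits of the membrane arm, 1 was called higher and 1 lower, beside 19.9% and 5.35% of all genes. The median difference was -0.014. It lay between -0.14 and -0.085 under 3 other scalings, with 1 or 2 called lower, and was 0.14 with arrays centred on the median of all probe sets. Ndufa10, a subunit with a nucleoside kinase fold, measured 10.83 and 10.98 on the acupoint arrays, 11.12 and 11.01 on the non-acupoint arrays, 11.07 and 11.03 on the MPTP arrays, and 10.66 and 10.73 on the control arrays. All treated arrays were above both controls, again with acupoint replicate 1 nearest. The difference was 0.31 (SE 0.062, limma adjusted p = 0.0068).

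Ndufa3, a small membrane-spanning subunit, measured 10.14 and 10.14 on the acupoint arrays, 10.15 and 10.08 on the non-acupoint arrays, 10.03 and 10.03 on the MPTP arrays, and 10.42 and 10.67 on the control arrays. The treated arrays lay in a narrow band below both controls. The 3 MPTP groups were lower by 0.45 (log2 difference -0.45, SE 0.072, limma adjusted p = 0.0027), which is 1.37-fold. Without control replicate 2 the difference was -0.32 and remained called (limma adjusted p = 0.034). Ndufs1 and Ndufa3 kept their call in this comparison in all 19 alternative settings, and the other 7 genes lost theirs in at least 1. Ndufa10 lost it in 1 setting, Ndufa9 in 2, Ndufs6 in 3 and Ndufs8 in 7. Ndufs7, Ndufv1 and Ndufa2 each lost it in 9 of the 19.

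The remaining 16 membrane-arm genes were not called. Their differences lay between -0.21 for Ndufb3 and 0.19 for Ndufb6. A second probe set of Ndufa11 differed from the one used: its difference was -0.33, against -0.090 for the brighter set. Ndufab1, the mitochondrial acyl carrier protein found in both arms, differed by 0.016 (limma adjusted p = 0.95).

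Ndufa4 measured 11.73 and 11.84 on the acupoint arrays, 11.79 and 11.83 on the non-acupoint arrays, 11.90 and 11.88 on the MPTP arrays, and 11.81 and 11.96 on the control arrays. Ndufa4l2, a paralogue induced by hypoxia, measured 5.86 and 5.42 on the acupoint arrays, 5.50 and 5.44 on the non-acupoint arrays, 5.50 and 5.53 on the MPTP arrays, and 5.62 and 5.94 on the control arrays. Neither was called, and acupoint replicate 1 overlapped control for Ndufa4l2. Its 2 highest arrays, control replicate 2 and acupoint replicate 1, are described further on.

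The promoters of the 4 called genes that match the letters of a YY1 site are shown because the same letters stand at a like place in genes that rose and in genes that fell. YY1 is a zinc-finger factor that, in cultured mammalian cells, works with the coactivator PGC-1alpha on mitochondrial genes. The sequences are from RefSeq on GRCm38.p6, from 250 bases before to 50 bases after the start site, 5′ to 3′ on the gene's strand. Ndufs7 (chr10:80249199-80249498, plus strand) and Ndufa9 (chr6:126849095-126849394, minus strand) rose, and Ndufs6 (chr13:73328433-73328732, minus strand) and Ndufa3 (chr7:3617123-3617422, plus strand) fell. Capitals mark AAGATGG, and also TATAAA in Ndufs7 and Ndufa3 and ATTGG, the reverse of CCAAT, in Ndufs6.
Ndufs7: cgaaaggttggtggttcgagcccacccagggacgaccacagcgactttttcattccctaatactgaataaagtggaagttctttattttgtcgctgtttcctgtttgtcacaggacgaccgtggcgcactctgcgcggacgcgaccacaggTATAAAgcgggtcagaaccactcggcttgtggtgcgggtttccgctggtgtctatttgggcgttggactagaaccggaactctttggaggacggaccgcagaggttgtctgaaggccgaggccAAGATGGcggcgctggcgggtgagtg
Ndufa9: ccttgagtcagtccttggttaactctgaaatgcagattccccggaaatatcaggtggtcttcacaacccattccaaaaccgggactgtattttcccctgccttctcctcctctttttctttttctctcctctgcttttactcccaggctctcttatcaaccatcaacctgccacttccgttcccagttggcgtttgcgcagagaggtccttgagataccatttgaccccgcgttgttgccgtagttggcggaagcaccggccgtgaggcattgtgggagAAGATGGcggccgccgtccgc
Ndufs6: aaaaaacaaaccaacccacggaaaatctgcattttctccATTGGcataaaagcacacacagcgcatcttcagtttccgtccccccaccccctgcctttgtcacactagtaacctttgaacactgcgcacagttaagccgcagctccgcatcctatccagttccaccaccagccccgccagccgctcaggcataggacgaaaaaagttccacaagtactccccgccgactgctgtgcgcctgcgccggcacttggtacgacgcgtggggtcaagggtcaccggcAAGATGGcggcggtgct
Ndufa3: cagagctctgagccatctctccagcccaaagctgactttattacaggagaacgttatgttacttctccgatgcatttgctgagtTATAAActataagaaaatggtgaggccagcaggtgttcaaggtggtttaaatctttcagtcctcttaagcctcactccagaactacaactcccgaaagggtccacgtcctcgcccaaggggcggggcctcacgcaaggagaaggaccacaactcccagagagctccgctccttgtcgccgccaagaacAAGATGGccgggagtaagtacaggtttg

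The AAGATGG letters began 25, 30, 34 and 23 bases after the start in Ndufs7, Ndufa9, Ndufs6 and Ndufa3, in this order, each on the gene's own strand. Searched on both strands, they were in 7 of the 32 subunit genes with a promoter entry (21.9%), against 7.28% of 27025 genes in the table. On the gene's strand after the start site they were in the same 7 of 32, against 1.54% of all genes. The other three were Ndufb8, Ndufc1 and Ndufs4, none of which was called. The letters were thus in 2 of 5 higher genes, 2 of 2 lower genes and 3 of 25 uncalled genes with an entry. They stood in genes of both directions, and with so few genes a link with direction was not tested. Of the other letters searched, CCGGAAG, bound by ETS factors such as GABPA, was in 4 of 32 (12.5% against 9.93% of all genes), GCGCATGC, part of the NRF1 site, in 3 of 32 (9.38% against 3.05%), CCAAT in 9 of 32 (28.1% against 41.1%) and TATAAA in 4 of 32 (12.5% against 15.7%). A match describes these letters and not binding. AAGATGG holds the letters ATG, and whether it overlaps a start codon in these genes was not tested. There was no entry for Ndufs1, Ndufa2, Ndufa4l2 and Ndufb9.

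Comparing MPTP alone with control, 5 genes were called higher and 1 lower. Ndufs1 rose by 0.56, Ndufa9 by 0.39, Ndufs8 by 0.38, Ndufa10 by 0.36 and Ndufv1 by 0.31, and Ndufa3 fell by 0.51 (limma adjusted p between 0.0046 and 0.033). Over all genes 13.7% were called higher and 3.10% lower, and 5 higher and 1 lower of 36 are close to these shares. The arrays did not overlap for 21 of 36 genes, against 64.0% of all genes. The median of the 36 was 0.075, against 0.061 for all genes. Under cyclic loess it was -0.066, against 0.037 for all genes. With arrays centred on the median of tested genes it was -0.011, against -0.026 for all genes. In the F-test over the 4 groups, Ndufs1, Ndufa3 and Ndufa10 were called, 3 of 36 against 10.8% of all genes.

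Set against control, acupoint mice had 1 gene higher, Ndufs1, against 9.55% of all genes, and 1 lower, Ndufa3 (-0.40, limma adjusted p = 0.021), against 2.17%. Non-acupoint mice had 3 higher, Ndufs1, Ndufa9 (0.46) and Ndufa10 (0.37), against 15.4% of all genes. They had 2 lower, Ndufa3 (-0.43) and Ndufs6 (-0.59), against 3.87%. These counts do not show that the groups differ from each other, for which the direct comparisons follow.

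No subunit gene was called between the needled and unneedled MPTP mice. In acupoint minus MPTP 0 of 36 were called, as were 0% of all genes. The median of the 36 was -0.098, against -0.0098 for all genes, and 32 of 36 differences were negative. At an unadjusted p under 0.05, 2 members and 201 genes were counted: Ndufa5 (-0.28) and Ndufs8 (-0.21), both with limma adjusted p = 1.00. Without acupoint replicate 1 the median was 0.0057 and 19 of 36 differences were positive, so the negative shift rested on that array.

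In non-acupoint minus MPTP 0 of 36 were called, against 0% of all genes, with a median of -0.020 and 0 members at an unadjusted p under 0.05 (273 genes). In acupoint minus non-acupoint needling 0 of 36 were called, against 0% of all genes, with a median of -0.092 and 2 members at an unadjusted p under 0.05 (604 genes), Ndufa12 (-0.22) and Ndufs5 (-0.38). Without acupoint replicate 1 this median was 0.022. Without acupoint replicate 2, where replicate 1 alone stands for the group and is assumed to vary like the others, 6 members and 540 of 16026 genes were called lower in acupoint mice.

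The replicates of 2 groups differed across most of the family. In the acupoint group replicate 2 was above replicate 1 for 32 of 36 genes, with a median difference of 0.23, while 54.2% of all genes were above. In the control group it was above for 33 of 36, with a median of 0.16, against 47.1% of all genes. In the non-acupoint group 12 and in the MPTP group 11 of 36 were above, with medians of -0.041 and -0.015. The acupoint and control pairs were thus split in the same direction for nearly every subunit, and the MPTP pair had the median nearest 0.

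**Figure D3:**
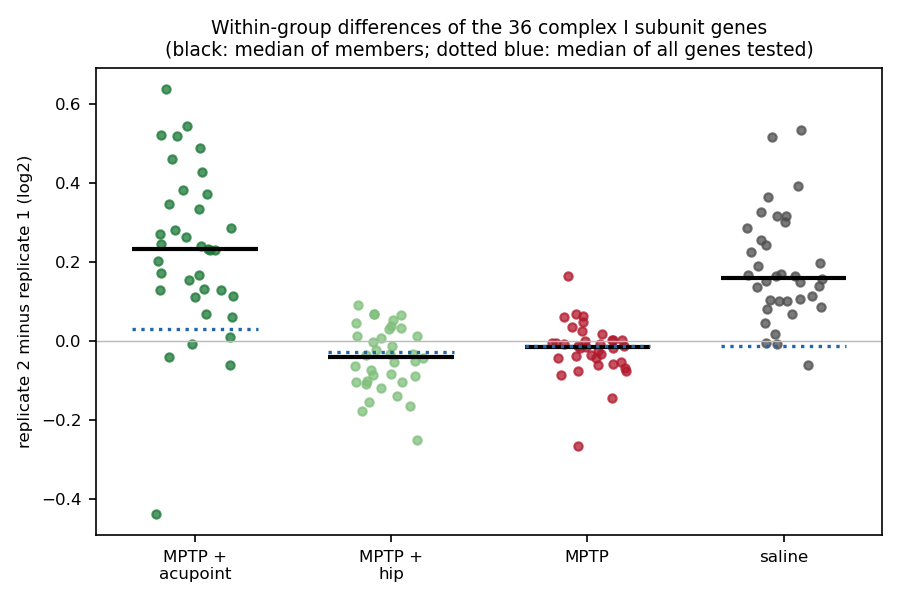
Replicate 2 minus replicate 1 (log2) for each of the 36 subunit genes in each group, with the median of the genes (black) and of all 16026 genes (dotted blue). In the acupoint and control groups the subunit medians, 0.23 and 0.16, lie above those of all genes, while in the non-acupoint and MPTP groups both medians are close to 0.

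Acupoint replicate 1 held the lowest of the 8 values for 21 of 36 subunit genes, against 13.7% of all genes, and 34 of 36 were below their own mean there. Control replicate 2 held the highest value for 15 of 36, against 16.0% of all genes. The split was seen among the core subunits and in both arms: in the acupoint group 5 of 6 core, 8 of 9 peripheral-arm and 17 of 18 membrane-arm genes were higher in replicate 2, and in the control group 4 of 6, 9 of 9 and 17 of 18 were. Ndufa4l2 ran the other way in the acupoint group, with replicate 2 lower by 0.44 (log2 difference -0.44). It was not seen in subunits of complex I alone, since of 37 subunit genes of complexes II to V 31 were higher in acupoint replicate 2 and 30 in control replicate 2.

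Markers of other tissues moved with these arrays. The mean of the 5 meningeal fibroblast markers was 8.49 and 6.31 on the acupoint arrays, 6.66 and 7.05 on the non-acupoint arrays, 6.46 and 7.52 on the MPTP arrays, and 8.26 and 6.62 on the control arrays. The mean of the 2 measured Schwann cell markers, of 4 listed, was 9.89 and 7.99, 8.18 and 8.26, 8.19 and 8.92, and 9.42 and 7.75 on the same arrays in the same order. As noted after these values were seen, in each of the 4 groups the replicate with the higher mean of both lists was the one in which most subunit genes were lower. Muscle markers did not follow one pattern: they were higher in the replicate with lower subunit signal in the acupoint group and lower in it in the control group. The part of these tissues in the subunit values was not tested.

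**Figure D4:**
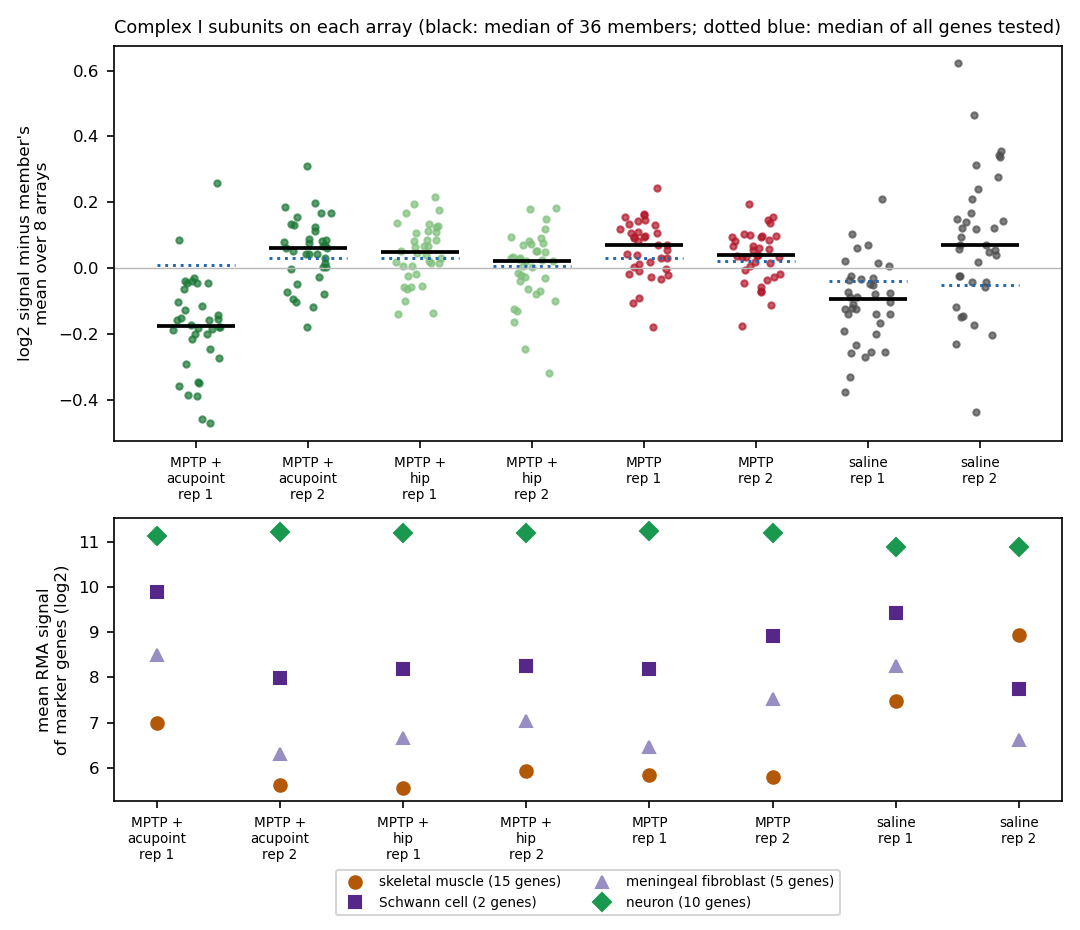
Top, log2 signal of each of the 36 subunit genes minus its own mean over 8 arrays, by array, with the median of the genes (black) and of all 16026 genes (dotted blue). Bottom, mean log2 signal of marker genes on the same arrays. Acupoint replicate 1, with a median of -0.18, stands lowest in the top panel and highest for Schwann cell markers, at 9.89, in the bottom one.

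Control replicate 2 and acupoint replicate 1 were also left out together, a choice made after seeing the data. Most subunit signals were higher on that control array than on the other, and lowest on that acupoint array. Leaving both out therefore raises most differences from control by construction, which is not separate evidence. In the 3 MPTP groups minus control 30 of 36 differences were then positive. The median of the 36 was then 0.17, against 0.056 for all genes. All 6 core genes were among the 30 with a positive difference. Leaving out control replicate 2 alone gave 3 calls, Ndufs1, Ndufa10 and Ndufa3, and 8.76% of all genes. Leaving out acupoint replicate 1 alone, the median of the 36 was 0.088, against 0.056 for all genes. Without control replicate 1 alone the median had the other sign, -0.064 against 0.064 for all genes, and 12 of 36 differences were positive. Without control replicate 2 alone it was 0.10, against 0.052, and 28 of 36 were positive.

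The assembly factors build the complex but are not part of it. Of 14 measured, 4 were called higher and 0 lower in the 3 MPTP groups minus control, beside 19.9% of all genes called higher. Of the 14 differences 10 were positive, and the median was 0.14. Under the 4 other scalings the median lay between 0.013, under cyclic loess, and 0.30, with between 2 and 5 called higher and 0 lower. Acad9, an acyl-CoA dehydrogenase relative that acts in assembly of the membrane arm, rose by 0.55 (limma adjusted p = 0.0027). Tmem126b, its partner in the same assembly step, rose by 0.58 (0.0098). Foxred1 rose by 0.28 (0.039) and Tmem186 by 0.46 (0.037). All 14 were higher in acupoint replicate 2 than in replicate 1, like the subunits, while in the control group 7 of 14 were.

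ND3, the only one of the mitochondrially encoded subunits measured here, fell by 0.28 (SE 0.069, limma adjusted p = 0.016). It measured 12.31 and 12.47 on the acupoint arrays, 12.38 and 12.59 on the non-acupoint arrays, 12.38 and 12.38 on the MPTP arrays, and 12.66 and 12.74 on the control arrays. Its treated arrays were all below control, with non-acupoint replicate 2 nearest, and with arrays centred on the median of all probe sets the difference was -0.13 and not called.

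Subunits of complexes II to V showed both directions too, with 6 of 37 called higher and 7 lower and a median of -0.016. Cyclic loess gave 2 higher, 17 lower and a median of -0.16. Quantile normalization again and centring on tested genes each gave 5 higher and 10 lower, with medians of -0.11 and -0.097, and centring on all probe sets gave 9 higher, 3 lower and a median of 0.14. In complex II, Sdha, its flavoprotein, and Sdhd, a membrane anchor, each rose by 0.30. In complex III, the catalytic iron-sulfur protein Uqcrfs1 rose by 0.40 and the core protein Uqcrc1 by 0.31. The small subunits Uqcrq and Uqcr11 fell by 0.51 and 0.52.

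In complex IV, Cox6b1 fell by 0.40 and Cox4i1 by 0.27. In complex V, Atp5a1, the alpha subunit of the catalytic head, rose by 0.28, while Atp5l and Atp5j2, small subunits of the membrane part, fell by 0.49 and 0.36. All of these calls had a limma adjusted p of at most 0.022, and in this comparison 19.9% of all genes were called higher and 5.35% lower. No difference between the complexes was tested.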

How the data were processed

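The deposited values are log2 signals, 1 for each of 35557 probe sets on each array. RMA and Affymetrix Expression Console are the tools listed, per the submitters' processing notes. RMA equalises arrays, so a level is relative to other transcripts on its array; the log base was inferred from the value range. Probe sets with 1 gene symbol and a mean above the 30th percentile (4.30) were kept, the brightest for each gene.

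Group means were fitted by lmFit of limma 3.58.1 under R 4.3.3, and variances were moderated by eBayes, allowing a trend with signal. Tests are two-sided, and each of 7 contrasts and the F-test was adjusted over all genes. An exact permutation of 2 arrays against 2 cannot go below 0.333. The fit was tested on simulated data. Members, lists and letters searched were chosen with earlier results of these data known. Every member could be named; of each other list, at most 4 of smallest p in MPTP minus control. Replicate numbers were not used as pairs in the main fit. Correlations of replicate differences between groups were -0.33 to 0.17, which does not settle whether the numbers mark pairs. Alternatives covered normalization, filter, moderation, probe sets, the replicate block and each array left out. No batch was tested. Plots used matplotlib 3.10.9 in Python 3.11.15.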

Additional observations from a re-analysis of the deposited data

How the results depend on the processing

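Each of the 22 called member differences was recomputed under 19 or 20 alternatives. None changed sign: 335 values kept their call and 96 lost it. The calls of Ndufs1 and Ndufa3 were lost in MPTP minus control only without MPTP replicate 1 or 2, where 1 array stands for the group and is assumed to vary like the others. The replicate block left 6 members called in MPTP minus control (13.8% of all genes), 5 in non-acupoint minus control (15.7%), 2 in acupoint minus control (8.72%) and 8 in the 3 MPTP groups minus control (22.2%), where Ndufa2 was lost (limma adjusted p = 0.065).

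Leaving out each array in turn, members called ranged from 0 to 8 in MPTP minus control, 0 to 7 in acupoint minus control, 1 to 9 in non-acupoint minus control, 3 to 14 in the 3 MPTP groups minus control, 0 to 13 in the F-test and 0 to 6 in acupoint minus non-acupoint. The share of all genes called moved with them, over 0.43% to 26.4%, 1.55% to 23.3%, 2.41% to 28.9%, 8.76% to 36.6%, 0.12% to 25.1% and 0% to 3.88% in the same order. The median of members then ranged from -0.044 to 0.17 in MPTP minus control, -0.20 to 0.064 in acupoint minus control and -0.21 to 0.022 in acupoint minus non-acupoint. In the 3 MPTP groups minus control it ranged from -0.064, without control replicate 1, to 0.10, without control replicate 2. No member was called in either needled group minus MPTP in any setting. MPTP minus control had 0 calls without either MPTP array and 2 without control replicate 2.

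Without an intensity trend 2 members were called in MPTP minus control (11.4% of all genes), 1 in acupoint minus control (6.38%), 5 in the 3 MPTP groups minus control (21.5%) and 1 in the F-test (3.31%). Acupoint minus control had 5 calls after quantile normalization again (12.8% of all genes), 5 under cyclic loess (9.06%), 4 with arrays centred on the median of tested genes (10.03%) and 0 with only the compared groups fitted (0.84%). Under cyclic loess the member median was -0.066 in MPTP minus control, -0.098 in non-acupoint minus control and -0.11 in the 3 MPTP groups minus control. The medians of all genes were 0.037, 0.033 and 0.035 in the same order.

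Centring on the median of all probe sets, added after seeing the data, moved the median of all genes in MPTP minus control to 0.22 and that of members to 0.23, and gave member medians of 0.058 in acupoint minus control, 0.21 in non-acupoint minus control and 0.17 in the 3 MPTP groups minus control. Relative to all genes the member median was then little above them in MPTP minus control and below them in the 3 MPTP groups. Leaving out control replicate 2 and acupoint replicate 1 together, also added, gave 13 calls in MPTP minus control (25.4% of all genes), 13 in acupoint minus control (25.2%), 14 in non-acupoint minus control (27.8%), 18 in the 3 MPTP groups minus control (32.5%) and 9 in the F-test (19.0%). It gave medians of 0.16 in acupoint minus control, 0.17 in the 3 MPTP groups minus control and 0.022 in acupoint minus non-acupoint. The higher medians after leaving out both arrays followed from that choice. Apart from it and from fewer arrays, the cause of these changes was not tested. RMA values hold no signal over background for each probe set, so what dim signal limits cannot be given.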

Other observations

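Of 10 regulators of mitochondrial gene expression, 3 were called higher and 0 lower in the 3 MPTP groups minus control, beside 19.9% of all genes called higher. Of the 10 differences 8 were positive, and between 2 and 5 were called higher under the 4 other scalings. Tfam, which packages mitochondrial DNA and starts its transcription, measured 7.56 and 8.10 on the acupoint arrays, 8.18 and 7.92 on the non-acupoint arrays, 7.97 and 7.93 on the MPTP arrays, and 7.35 and 7.30 on the control arrays, a difference of 0.62 (limma adjusted p = 0.0092). Tfb2m, a mitochondrial transcription factor, rose by 0.43 (0.027) and Gabpa, an ETS factor, by 0.35 (0.036). Acupoint replicate 1 was the lowest treated array for these 3 genes, as for many subunits. Esrra did not pass (0.23, limma adjusted p = 0.066).

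Of genes that handle MPTP, Maob, which converts it to MPP+, measured 8.71 and 8.76 on the acupoint arrays, 8.82 and 8.81 on the non-acupoint arrays, 8.78 and 8.71 on the MPTP arrays, and 8.22 and 7.87 on the control arrays. It rose by 0.72 (SE 0.090, limma adjusted p = 0.0012), and astrocyte markers, 6 of 6, rose in the same comparison. The dopamine transporter Slc6a3 (0.11, limma adjusted p = 0.68) and the vesicular transporter Slc18a2 (-0.04, limma adjusted p = 0.88) did not pass. Of the 3 muscle isoforms of complex IV, Cox6a2 fell by 0.81 (limma adjusted p = 0.0082), beside the muscle markers, of which 13 of 15 fell, and its part in the subunit results was not tested.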
